A study of Mus musculus with 4 samples.

Results

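Among the cells sorted as αLPs from mouse bone marrow, 595 of the 8322 cells that passed the limits carried reads of *Il1rl1*, the gene for the IL-33 receptor ST2, and few or no reads of *Id2*. They were defined by the level L, which is ln(1 + reads per 10000): L(*Id2*) under 1, L(*Il1rl1*) of at least 1 and L(*Mki67*) under 1. A limit of 1 stands for 1.72 reads per 10000. The αLPs are Lin−CD127+FLT3−LPAM-1+ cells, which hold innate lymphoid cell (ILC) progenitors and bone marrow ILC2s. They came from adult C57BL/6 mice, either wild type (WT) or G3SEKO, which lack the tandem super-enhancers downstream of *Gata3* after CRISPR-Cas9 deletion in the germ line, so that every cell carries the deletion. Untreated mice, several of each genotype, gave the cells of each of 2 experiments. Antibodies to MHC class I that carry a hashtag marked the cells before they were mixed, and single-cell libraries were made on the TAS-Seq platform. The labels give experiment 1 the hashtags A0307, A0308 and A0309 for WT and A0310, A0311 and A0312 for G3SEKO, but list both hashtags of experiment 2, A0302 and A0303, under WT. A0303 was taken as G3SEKO by the rule that set the genotypes and not by the labels, on which all G3SEKO values of that experiment depend. Hashtags are not tied to single mice, and only WT cells gave enough members for a comparison.

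Id2 is a helix-loop-helix protein without a DNA-binding region. It binds E proteins, such as the products of *Tcf3*, *Tcf4* and *Tcf12*, and keeps them off DNA, and ILCs are known to need it for their development. GATA3 is the transcription factor that drives the ILC2 programme, and mature ILC2s of the bone marrow carry ST2 and CD25, the IL-2 receptor α chain encoded by *Il2ra*. In this study, cells with low *Id2* were left out before the ILC stages were compared. Its limit on *Id2* is not given, so the cells under the limit used here need not be those it left out. The question here is whether *Id2*-low cells with *Il1rl1* reads differ from other *Il1rl1*+ cells in more than *Id2*.

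Of the 595 cells, 575 were WT cells of experiment 2, 16 were WT cells of experiment 1 and 4 were G3SEKO cells of experiment 2. G3SEKO cells of experiment 1 gave none, with 2 *Il1rl1*+ cells in all. Reads per passing cell differed between the experiments, with medians of 392170 in WT cells of experiment 1 and 28378 in WT cells of experiment 2. In the members the medians were 215190 and 23674 reads. The 16 members of experiment 1 came from all 3 WT hashtags, 2 from A0307, 6 from A0308 and 8 from A0309. The experiments, which are separate libraries, share 11 barcodes.

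The label of these cells was checked against its markers. In WT cells of experiment 2, *Gata3* reads were found in 482 of 575 members (83.8%) and *Il2ra* reads in 360 (62.6%). The 575 *Id2*-high *Il1rl1*+ cells matched to them on reads gave 492 (85.6%) and 361 (62.8%). Both genes were found together in 319 members and in 318 matched cells. In experiment 1, all 16 members had *Gata3* reads and 15 had *Il2ra* reads, against 16 and 13 of the matched cells. The WT members therefore carried the ST2+ ILC2 markers about as often as the *Id2*-high cells did. Of the 4 G3SEKO members, 2 had *Gata3* reads, 3 had *Il2ra* reads and 1 had both, so the label rests on few reads there.

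*Id2* chose the cells, and its values are given as a description. In experiment 2, 245 of the 575 WT members had no *Id2* read, 113 had 1 read, 81 had 2, 108 had 3 to 5 and 28 had more than 5, with a highest count of 15. The 575 matched *Id2*-high cells had a median of 40 *Id2* reads (2 to 510), and all 3515 *Id2*-high *Il1rl1*+ WT cells had a median of 54. In experiment 1, where cells were sequenced deeper, the 16 members had 0, 1, 3, 3, 5, 5, 9, 10, 10, 13, 19, 26, 29, 34, 38 and 91 *Id2* reads, beside a median of 275.5 in the 16 matched cells and 807.5 in all 418 *Id2*-high cells. All but 1 of these members thus had *Id2* reads. The 4 G3SEKO members had 0, 0, 1 and 2 *Id2* reads out of 9701, 42241, 34328 and 11836.

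The limit lay in different places of the 2 distributions. In experiment 2, 74 *Il1rl1*+ WT cells had L(*Id2*) from 0.8 to just under 1 and 71 from 1 to just under 1.2, so nearly as many cells stood just outside the limit as just inside it. The nearest values were 0.999 and 1.01. In experiment 1, 1 cell stood in the lower range and 7 in the upper one, and the nearest values were 0.961 and 1.03. The median L(*Id2*) of the members was 0.319 in experiment 2 and 0.444 in experiment 1, while the *Id2*-high cells had medians of 2.83 and 3.19. In the plot of L(*Id2*), the WT cells of experiment 2 had a separate rise at the lowest values, with 264 cells under 0.25 and 99 in the next step, whereas experiment 1 had 5 and 6. Cells with no *Id2* read have an L of 0 and fall in the lowest step. They were 245 of its cells in experiment 2 and 1 in experiment 1, where cells were sequenced deeper.

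**Figure D1:**
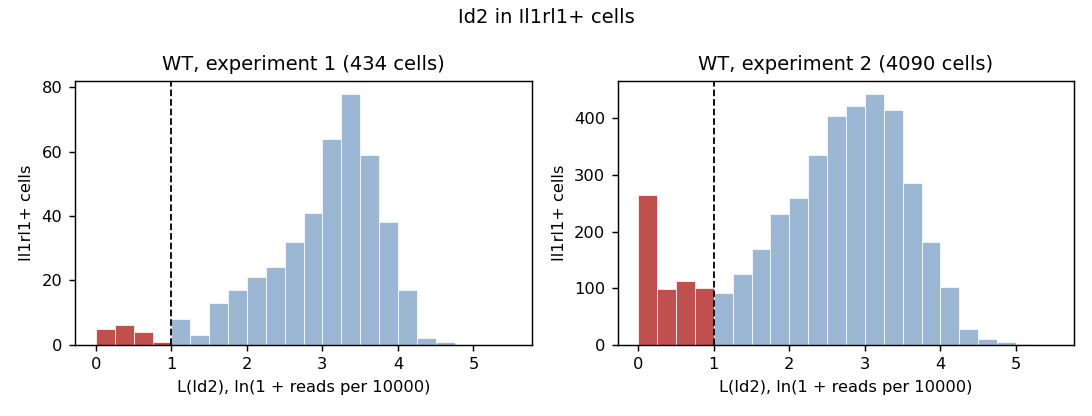
Number of WT *Il1rl1*+ cells (y axis) by L(*Id2*) (x axis, ln(1 + reads per 10000), steps of 0.25) in experiment 1 (434 cells) and experiment 2 (4090 cells). Red bars are *Id2*-low cells, blue bars *Id2*-high cells, and the dashed line is the limit of 1; the lowest step holds 264 cells in experiment 2 and 5 in experiment 1.

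*Id2*-low cells made up 575 of 4090 *Il1rl1*+ cells in WT of experiment 2 (14.1%, 95% exact binomial interval 13.0 to 15.2). In WT of experiment 1 they made up 16 of 434 (3.69%, 2.12 to 5.92). By hashtag, the share in experiment 1 was 1.21% for A0307, 4.48% for A0308 and 5.93% for A0309, and these intervals overlapped (0.147 to 4.31, 1.66 to 9.49 and 2.59 to 11.3). In G3SEKO of experiment 2 the share was 4 of 53 (7.55%, 2.09 to 18.2). No test between the genotypes was made, since no replicate animals can be assigned to cells. The intervals cover counting error of cells only.

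The share was lower in cells with more reads in both experiments. The *Il1rl1*+ WT cells were put in 4 depth classes of equal size by reads per cell. In experiment 2, the class with the fewest reads (median 16436) held 22.1% *Id2*-low cells (19.6 to 24.8). The next classes, with medians of 24612 and 36404.5 reads, held 16.0% (13.8 to 18.4) and 11.9% (10.01 to 14.1). The class with the most reads (median 71530) held 6.16% (4.77 to 7.82). Cells with no *Id2* read at all went from 13.0% of the first class to 1.17% of the last. In experiment 1 the classes held 8.26, 2.75, 1.85 and 1.85%, that is 9, 3, 2 and 2 cells, and their intervals overlapped.

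**Figure D2:**
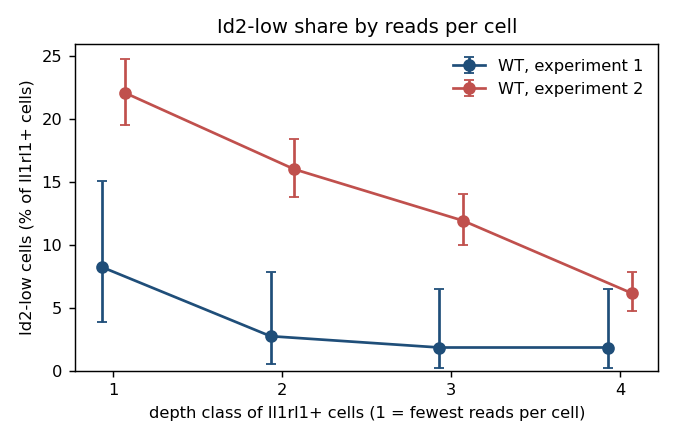
*Id2*-low cells as a percentage of WT *Il1rl1*+ cells (y axis) in 4 depth classes of cells (x axis, 1 is the class with the fewest reads per cell). Points are shares, bars are 95% exact binomial intervals, and colours are the experiments; the share goes from 22.1 to 6.16% in experiment 2 and from 8.26 to 1.85% in experiment 1.

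To set both experiments to the same reads per cell, every cell was thinned at random to 1 number of reads, the minimum of experiment 2. Since copies of 1 molecule were not collapsed, equal reads do not mean that equal numbers of molecules were sampled. Of the same 434 *Il1rl1*+ WT cells of experiment 1, 29 were then under the *Id2* limit (6.68%, 4.52 to 9.46), compared with 16 before. Of the same 4090 cells of experiment 2, 694 were under it (17.0%, 15.8 to 18.2), compared with 575 before. These intervals cover counting error of cells in 1 library each, so the difference between the experiments has no test. The sorter given for the experiments also differs, a FACSAria II for experiment 1 and a BD Melody for experiment 2. The published methods for these single-cell libraries name only the FACSAria II. The part of the instrument in the difference cannot be told apart from the rest of the experiment.

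Low counts of other genes give the scale for these shares. In *Il1rl1*+ WT cells of experiment 2, *Id2* had a mean of 17.4 reads per 10000 and 14.1% of cells were under L of 1. The other 31 genes with a mean within the same narrow fold range around it, given with the methods (*Il1rl1*, which the rule used, left out) had 1.10 to 16.9% of cells under the limit, with a median of 5.97%. Of these, *H2-Q7* (an MHC class I gene) and *Shisa5* stood above *Id2*, and most were ribosomal protein or mitochondrial genes. Among the named genes of like mean, *Ubb*, which encodes ubiquitin, had 13.8%, *Ppia* (cyclophilin A) 11.3% and *Il7r*, the IL-7 receptor α chain, 8.97%. In experiment 1, *Id2* had a mean of 24.1 and 3.69% of cells under the limit. There it stood above all 36 genes of like mean, which ranged from 0 to 3.23% with a median of 0.691%. With thinned cells, *Id2* had 6.68% under the limit and the 36 genes 0.230 to 5.30%. In experiment 2 the thinned value for *Id2* was 17.0%, and 3 genes (*H2-Q7*, *Shisa5* and *Ubb*) stood above it, up to 19.9%.

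Of the ILC2 genes, *Il7r* was under the same limit in a smaller share than *Id2* in experiment 2 and in a larger one in experiment 1 (4.61% at a mean of 19.1), and 4 genes of lower mean were under it in larger shares. In experiment 2, *Gata3* was under it in 24.5% of *Il1rl1*+ WT cells, *Ets1* in 31.8%, *Il2ra* in 46.5% and *Icos*, a co-stimulatory receptor, in 52.0%. Their means were lower than that of *Id2*, at 10.3, 8.50, 5.89 and 6.70 reads per 10000. In experiment 1 the shares were 8.29, 22.1, 43.3 and 32.03%. The order of the shares was not the reverse of the order of the means throughout, since *Icos* had a higher mean than *Il2ra* and a larger share under the limit in experiment 2.

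**Figure D3:**
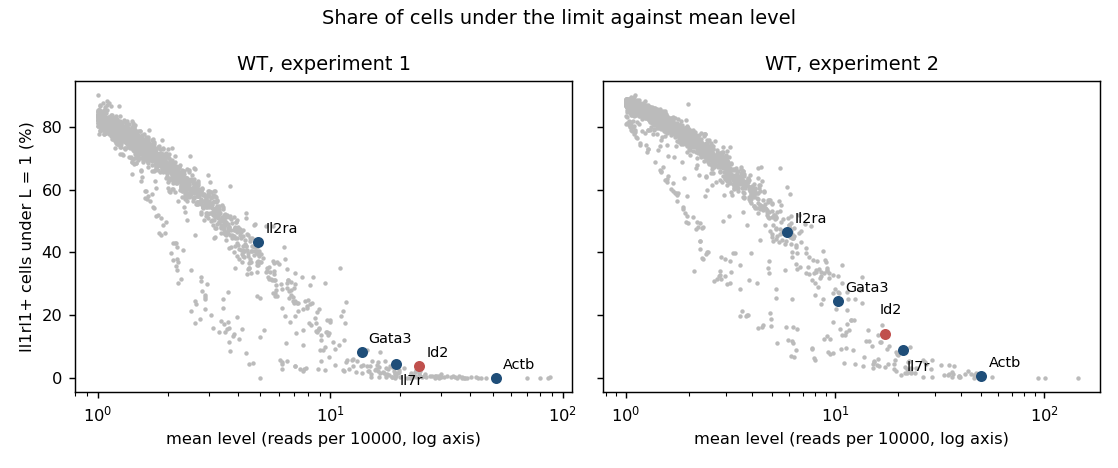
Percentage of WT *Il1rl1*+ cells with L under 1 (y axis) against the mean level in reads per 10000 (x axis, log axis), 1 point per gene with a mean of at least 1, for each experiment. Grey points are all such genes but *Il1rl1*, *Id2* is red and 4 other genes are blue; *Id2* lies at 3.69% in experiment 1 and 14.1% in experiment 2, while *Il2ra* lies at 43.3 and 46.5%.

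Each member was then paired with an *Id2*-high *Il1rl1*+ cell of the same hashtag with nearly the same number of reads, and all 595 found a partner. In WT of experiment 2 the median cell had 1584 detected genes among members (quartiles 1258 and 1992.5) and 1612 among the matched cells (1308.5 and 2009). The median mitochondrial share was 3.02% and 2.98%, and the median number of hashtag reads was 2937 and 2855. In experiment 1 the median number of genes was 4029 in members and 3823 in matched cells, with mitochondrial shares of 3.45% in both, and the median number of hashtag reads was 38031 and 45515. Before matching, *Id2*-high cells had more reads, with medians of 30998 in experiment 2 and 369314 in experiment 1. With reads matched, the medians of genes detected and of mitochondrial share lay close together in both experiments, while those of hashtag reads lay further apart in experiment 1, where the quartiles overlapped (32680 to 45828 and 30121 to 52058).

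Reads were summed per class within WT of each experiment, which gave 4575234 reads in members and 4616208 in matched cells of experiment 1 and 16499805 and 16499561 in experiment 2. The sums were compared with edgeR, with the experiment as a block. Of 14024 genes tested besides those the rule used, 0 passed an adjusted p of 0.05 (0%), and 35 had an unadjusted p under 0.05. DESeq2 on the same sums called 3 genes, each at 0 or 1 read in 1 of the classes of 16 cells in experiment 1. *Mx2*, an interferon-induced gene, had 194 counts per 1000000 reads (CPM) in members and 0.217 in matched cells there. With 4 sums and 1 degree of freedom left between them, a gene that misses the threshold is not shown to be equal. Even *Id2*, which the rule set apart, had an adjusted p of 0.378 in this edgeR fit, at a log2 change of -4.88, so counts of 0 called genes say little here.

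*Id2* itself had 55.1 CPM in members and 2069 CPM in matched cells of experiment 2, and 64.7 and 1500 CPM in experiment 1. This follows from the rule. The other differences in experiment 2, where each class holds 575 cells, were narrow. Among 4183 genes with a mean of at least 50 CPM, the log2 ratio of members to matched cells had a median of 0.00 and an SD of 0.30, and 90% of genes lay between -0.49 and 0.53. A 2-fold difference was passed by 23 of these genes (0.55%), 15 higher and 8 lower in members, and 11 of the 23 had the same sign in experiment 1. The lowest was *Arntl*, a clock gene, at -1.20, and the highest *Mark3* at 1.249, beside -5.23 for *Id2*. Both genes had adjusted p = 0.999 in edgeR. *Icam1* and *Il18rap* were among the 8 lower genes and were lower in members in experiment 1 too. *Icam1* had 34.4 and 75.8 CPM in experiment 2 and 4.59 and 83.8 CPM in experiment 1, with a log2 change of -2.64 (-6.35 to 1.07). *Il18rap* had 35.6 and 73.0 CPM and 5.68 and 39.0 CPM, with a log2 change of -1.89 (-5.39 to 1.60). Neither was called. In experiment 1, with 16 cells a class, the SD of the log2 ratio was 1.71 over 3173 genes, and 1245 genes passed 2-fold.

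**Figure D4:**
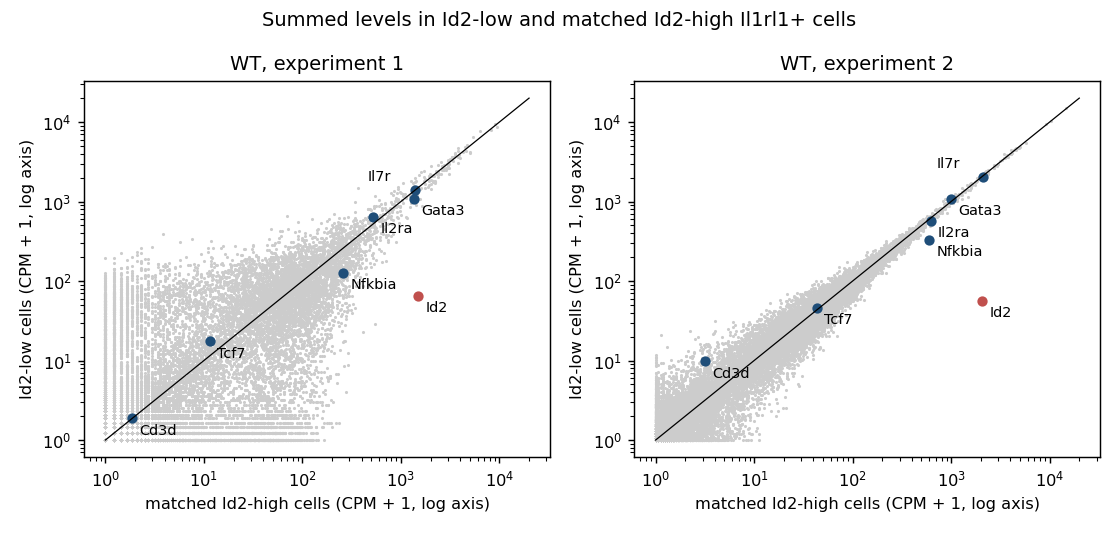
Summed reads of *Id2*-low members (y axis) against matched *Id2*-high *Il1rl1*+ cells (x axis), both in CPM + 1 on log axes, for WT of experiment 1 (16 cells a class) and experiment 2 (575 cells a class). Grey points are genes, the line marks equal levels, *Id2* is red and 6 other genes are blue; *Id2* lies at 55.1 against 2069 CPM in experiment 2, with *Gata3*, *Il2ra* and *Il7r* next to the line.

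Genes of ILC2s had narrow ratios between the classes in experiment 2 and wide ones in experiment 1. Of 45 genes in the ILC2 list, 42 were tested and 0 were called by edgeR. The list summed to 17802 CPM in members and 18157 CPM in matched cells of experiment 2 and to 18329 and 14888 CPM in experiment 1. The 31 of them with at least 50 CPM in experiment 2 had log2 ratios from -0.64 to 0.20, with a median of -0.08, and 0 passed 2-fold. *Gata3* had 1072 CPM in members and 992 CPM in matched cells of experiment 2, and 1078 and 1372 CPM in experiment 1. The 2 experiments went in opposite directions. Its fitted log2 change was -0.11 (SE 0.17, 95% interval -0.57 to 0.34, adjusted p = 0.999 in edgeR). *Il2ra* had 576 and 621 CPM in experiment 2 and 641 and 521 CPM in experiment 1, again in opposite directions, with a log2 change of 0.10 (-0.52 to 0.72). *Il7r* had 2010 and 2117 CPM in experiment 2 and 1382 CPM in both classes of experiment 1, with a log2 change of -0.03 (-0.34 to 0.27).

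*Inpp4b*, a phosphoinositide phosphatase gene, had 1248 and 1085 CPM in experiment 2 and 1471 and 365 CPM in experiment 1. It was higher in members in both, with a log2 change of 1.11 (-0.18 to 2.40, adjusted p = 0.999 in edgeR). *Cysltr1*, a receptor of cysteinyl leukotrienes, had 343 and 406 CPM in experiment 2 but 665 and 68.0 CPM in experiment 1, and *Rnf128*, a ubiquitin ligase gene, 597 and 595 CPM but 734 and 339 CPM. Other ILC2 genes varied too. *Il17rb*, the IL-25 receptor subunit, had 532 and 471 CPM in experiment 2 and 439 and 331 CPM in experiment 1. *Rora*, a transcription factor of ILC2 development, had 378 CPM in members and 482 CPM in matched cells of experiment 2, and 458 and 381 CPM in experiment 1. *Icos* had 667 and 713 CPM in experiment 2 and 947 and 690 CPM in experiment 1. *Cnot6l*, which encodes a deadenylase of the CCR4-NOT complex, had 1079 and 973 CPM in experiment 2 and 1177 and 1057 CPM in experiment 1. *Nmur1*, the receptor of neuromedin U, had the lowest ratio of the 31 genes, with 57.6 and 89.6 CPM in experiment 2 and 35.4 and 55.2 CPM in experiment 1, a log2 change of -0.64 (-2.99 to 1.72). Members were higher than matched cells in both experiments for *Il17rb* and *Cnot6l* and lower in both for *Nmur1*, but none passed the test. Of the type 2 cytokine genes, *Il13* had 3.94 CPM in members and 0.364 in matched cells of experiment 2 and 0 and 0.433 in experiment 1. *Il5* had 0 and 0.182 CPM in experiment 2 and 0 and 31.8 CPM in experiment 1, and *Il4* 37.5 and 28.8 CPM and 60.1 and 31.4 CPM.

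The other Id genes were at or near 0 in both classes. In experiment 2, *Id1*, *Id3* and *Id4* had 0.424, 0 and 0 CPM in members, and 0, 0.0606 and 0 in matched cells. In experiment 1 each was at most 0.219 CPM in either class. The E protein genes, whose products Id2 binds, were present in both classes. *Tcf12* had 164 and 148 CPM in experiment 2 and 40.7 and 13.2 CPM in experiment 1, with a log2 change of 0.88 (-1.24 to 2.999). *Tcf3* had 82.9 and 65.3 CPM in experiment 2 and 196 and 118 CPM in experiment 1, with a log2 change of 0.54 (-0.93 to 2.01). *Tcf4* went in opposite directions, with 22.2 and 31.5 CPM in experiment 2 and 56.0 and 30.1 CPM in experiment 1. Of the 5 genes of the Id and E protein list that were tested, 0 were called.

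The 11 genes of the ILC precursor list summed to 538 CPM in members and 662 CPM in matched cells of experiment 2 and to 704 and 456 CPM in experiment 1. The highest in experiment 2 were *Runx3*, with 155 and 235 CPM, and *Ikzf3*, with 140 and 162 CPM. *Tox*, which encodes a factor of early ILC development, had 38.1 and 58.3 CPM in experiment 2 and 181 and 136 CPM in experiment 1. *Zbtb16*, which encodes PLZF and marks ILC precursors, had 21.5 and 28.5 CPM in experiment 2 and 101 and 13.6 CPM in experiment 1. *Tcf7*, encoding TCF-1, which belongs to the ILC2 list and is not among these 11 genes, had 45.4 and 42.4 CPM in experiment 2 and 16.4 and 10.4 CPM in experiment 1. *Pdcd1* was at 9.88 and 8.55 CPM in experiment 2. *Il18r1* had 37.0 and 22.1 CPM in experiment 2 but 27.1 and 96.2 CPM in experiment 1. All 11 were tested and 0 were called.

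Markers of other cell types were read in both classes. The mast cell and basophil genes *Mcpt8*, *Ms4a2* and *Fcer1a* had 0 reads in all 4 sums, and the 7 genes of that list present in the tables summed to 50.3 CPM in members and 34.8 in matched cells of experiment 2 and to 105 and 135 CPM in experiment 1, mostly *Cpa3* (38.2 and 31.3 CPM in experiment 2). *Cd3e* was at 0.303 and 0.0606 CPM and *Cd3d* at 8.73 and 2.18 CPM in experiment 2, and both were under 1 CPM in experiment 1. The 13 T lineage genes summed to 667 and 632 CPM in experiment 2 and to 658 and 882 CPM in experiment 1, nearly all from the constant region genes *Trbc1* and *Trbc2*. *Vpreb3*, a pre-B cell receptor gene, had 0 reads, and the 9 B lineage genes summed to 278 and 318 CPM in experiment 2 and to 414 and 108 CPM in experiment 1, mostly *Ighm*. The 10 myeloid genes summed to 572 and 658 CPM in experiment 2 and to 1314 and 809 CPM in experiment 1, nearly all from *Ccr2*, while *Mpo*, *Elane* and *S100a8* were under 5 CPM in each sum. *Tbx21* had 0 reads, and the 9 genes of NK cells and ILC1s summed to 48.5 and 28.9 CPM in experiment 2 and to 54.2 and 57.0 CPM in experiment 1. Erythroid and megakaryocyte genes (8 in the tables) summed to 44.7 and 24.6 CPM in experiment 2 and to 4.37 and 104 CPM in experiment 1, and the 8 stem and early progenitor genes to 206 and 230 CPM and to 151 and 165 CPM. The 5 genes of LTi cells and ILC3s summed to 1087 and 1334 CPM and to 1014 and 1058 CPM, mostly *Ltb*. The erythroid gene *Car1* had 20.1 CPM in members and 0.121 CPM in matched cells of experiment 2, and *Gata2*, of mast cells and early progenitors, 10 CPM and 0. *Ighm*, *Trbc1*, *Trbc2*, *Ccr2* and *Ltb* were read well above 0 in both classes, at 244, 267, 338, 564 and 1068 CPM in members of experiment 2 and 277, 240, 297, 644 and 1297 CPM in matched cells. Of the tested genes of these lists, 0 were called. The larger differences of experiment 1 rest on 16 cells a class, and the part of these markers in the results was not tested.

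Genes linked to the state of a cell were compared in the same way. The 10 reference genes summed to 35226 and 35870 CPM in experiment 2 and to 34370 and 35025 CPM in experiment 1. The 10 immediate early and stress genes above 50 CPM in experiment 2 had log2 ratios from -0.41 to 0.45, with a median of -0.01. *Junb*, a subunit of AP-1, had 1068 and 859 CPM in experiment 2 and 985 and 342 CPM in experiment 1, with a log2 change of 0.92 (-0.02 to 1.86, adjusted p = 0.999 in edgeR), and it was higher in members in both experiments. *Fos* had 543 and 501 CPM in experiment 2 but under 1 CPM in both classes of experiment 1. The 5 apoptosis genes above 50 CPM had log2 ratios from -0.16 to 0.40, and *Bcl2*, the survival factor, had 243 and 261 CPM in experiment 2. The 4 nuclear retained RNAs above it had ratios from -0.02 to 0.46, with *Malat1* at 984 and 998 CPM. The 16 cell cycle genes summed to 770 CPM in members and 824 CPM in matched cells of experiment 2 and to 400.2 and 564 CPM in experiment 1, after a limit on *Mki67* had been set for both classes. Of these, *Tubb5*, a tubulin gene, had 391 and 374 CPM in experiment 2, *Pcna*, the sliding clamp of DNA replication, 140 and 144 CPM, and *Rrm2*, a subunit of ribonucleotide reductase, 1.58 and 8.30 CPM. Of the 13, 11, 4, 10 and 12 genes of the stress, apoptosis, nuclear RNA, reference and cell cycle lists that were tested, 0 were called.

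Per cell, most of the other genes examined were under L of 1 somewhat more often in members than in matched cells of experiment 2. In experiment 1, with 16 cells a class, more genes went this way than the other, but not most of them. The difference between the experiments was not tested. Of 19 genes besides *Id2* in experiment 2, 14 were under the limit in more members than matched cells, 3 in fewer and 2 in as many, and with thinned cells these were 12, 6 and 1. In experiment 1, 9 were under it in more members, 4 in fewer and 6 in as many, and with thinned cells 8, 7 and 4. In experiment 2, *Gata3* was under L of 1 in 29.2% of members (25.5 to 33.1) and in 30.8% of matched cells (27.0 to 34.7). For *Il2ra* the shares were 52.7% (48.5 to 56.8) and 52.2% (48.0 to 56.3), and for *Ubb* 18.3% (15.2 to 21.7) and 17.7% (14.7 to 21.1). *Il7r* was under the limit in 14.6% (11.8 to 17.8) and 11.5% (8.99 to 14.4). The shares for *Ets1*, a transcription factor of lymphocytes, were 40.0% (36.0 to 44.1) and 31.7% (27.9 to 35.6), and those for *Ltb*, encoding lymphotoxin β, 33.6% (29.7 to 37.6) and 26.1% (22.5 to 29.9). For *Icos* they were 61.2% (57.1 to 65.2) and 57.2% (53.1 to 61.3), and for *Actb* 1.22% in both classes. Of the 19 genes in experiment 2, *Ets1* had the one pair of intervals that did not overlap. The summed level of *Ets1* was 824 and 861 CPM. All these cells came from 1 library, so these intervals do not cover differences between animals.

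The relation of other genes to *Id2* was followed over the whole range of *Id2* in *Il1rl1*+ WT cells, in 5 classes of L(*Id2*): under 1, 1 to 2, 2 to 3, 3 to 4, and 4 or more. These held 16, 41, 118, 239 and 20 cells in experiment 1 and 575, 618, 1423, 1327 and 147 cells in experiment 2. *Gata3* went through 1078, 1128, 1387, 1422 and 1421 CPM in experiment 1 and 1072, 961, 1051, 1071 and 916 CPM in experiment 2. *Il2ra* stayed between 455 and 641 CPM in experiment 1 and between 552 and 628 CPM in experiment 2. *Il7r* was higher from class to class in both experiments, from 1382 to 2256 CPM and from 2010 to 2209 CPM. These values have no test, and reads per cell differed between the classes, with medians from 20991 to 32606 in experiment 2.

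*Nfkbia*, which encodes the NF-kB inhibitor IκBα and is itself induced by NF-kB, was chosen after its values were seen. It had 125 CPM in the lowest class of experiment 1, 341 CPM in the fourth and 689 CPM in the highest, with each class above the one before, and 328, 449, 463, 748 and 1448 CPM over the classes in experiment 2, so that the order of the classes was the same in both. In the matched comparison it had 328 CPM in members and 598 CPM in matched cells of experiment 2, and 125 and 257 CPM in experiment 1. The fitted log2 change was -0.95 (SE 0.29, 95% interval -1.73 to -0.17), which did not pass over all genes (adjusted p = 0.999 in edgeR). The hashtags of experiment 1 did not go the same way, with 58.9 and 576 CPM for A0308 (6 cells a class) and 261 and 12.4 CPM for A0309 (8 cells a class). With the limit on *Id2* moved to 2, which puts 17, 15 and 23 cells of A0307, A0308 and A0309 and 1193 of A0302 in each class, *Nfkbia* was lower in the *Id2*-low class in 3 of the 4 hashtags and higher in A0308 (285 and 128 CPM), with a log2 change of -0.76 (-2.06 to 0.55). With that limit, edgeR called 0 of 12096 genes besides those the rule used, and 183 had an unadjusted p under 0.05. Among these were *Il7r*, with a log2 change of -0.54 (-0.91 to -0.17), and *Rora*, with -0.64 (-1.13 to -0.16), both lower in the *Id2*-low class in all 4 hashtags (adjusted p = 0.9997 for both). At the limit of 1, *Rora* had gone in opposite directions in the 2 experiments and the fitted change of *Il7r* was -0.03. *Junb* had a log2 change of 0.03 (-0.68 to 0.74) at the limit of 2, beside 0.92 at the limit of 1. The other NF-kB pathway genes given here kept such an order in experiment 2 at most. *Nfkb1*, a subunit of the factor, was higher from class to class in experiment 2, from 442 to 554 CPM, but highest in the lowest class of experiment 1 (522 CPM). *Tnfaip3*, encoding the inhibitor A20, went through 125, 127, 138, 152 and 305.5 CPM in experiment 2 and through 39.8, 13.4, 22.7, 37.1 and 84.5 CPM in experiment 1, where the lowest class stood above the next 3. *Birc3*, a survival gene, had 165 CPM in the lowest class of experiment 1 and 133 CPM in the highest, and 123 and 145 CPM in experiment 2.

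**Figure D5:**
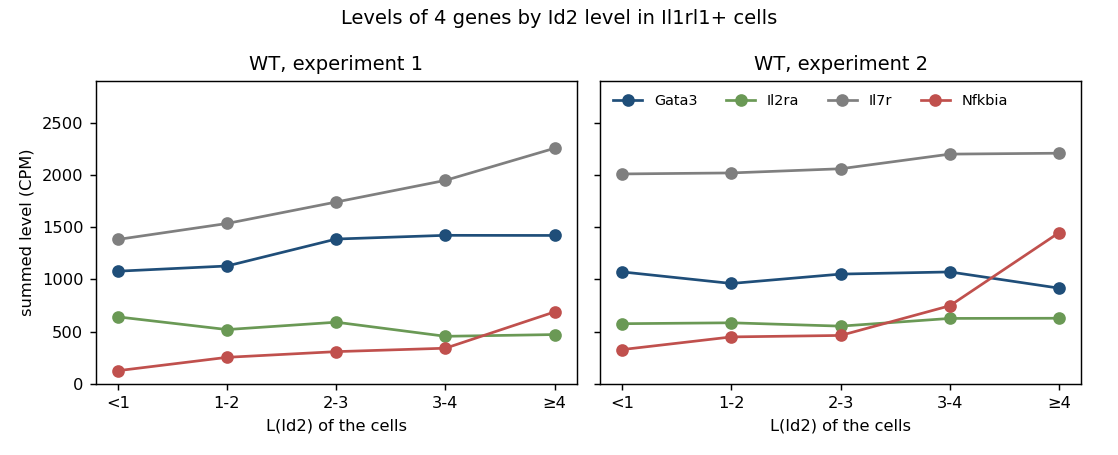
Summed level in CPM (y axis) of *Gata3*, *Il2ra*, *Il7r* and *Nfkbia* in WT *Il1rl1*+ cells by class of L(*Id2*) (x axis), 1 line per gene, for each experiment. *Nfkbia* goes from 125 to 689 CPM in experiment 1 and from 328 to 1448 CPM in experiment 2, while *Gata3* goes from 1072 to 916 CPM in experiment 2.

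The windows of 250 bases before the RefSeq start sites of *Id2* and *Nfkbia* are printed because *Id2* chose the cells and *Nfkbia*, named after its values were seen and not called, was followed over the *Id2* classes. Both are on chromosome 12 of GRCm38, on the minus strand, with the gene bodies at 25093799 to 25097140 (*Id2*) and 55489410 to 55492647 (*Nfkbia*) in GENCODE, and the sequences are those of RefSeq (GRCm38.p6), written in the direction of the gene. The windows end at the start sites of RefSeq, and that of *Id2* lies inside the longer gene body of GENCODE. Capitals mark matches on either strand to CCAAT in *Id2* (chr12:25096093-25096342) and to the NF-kB consensus in *Nfkbia* (chr12:55492648-55492897).
Id2: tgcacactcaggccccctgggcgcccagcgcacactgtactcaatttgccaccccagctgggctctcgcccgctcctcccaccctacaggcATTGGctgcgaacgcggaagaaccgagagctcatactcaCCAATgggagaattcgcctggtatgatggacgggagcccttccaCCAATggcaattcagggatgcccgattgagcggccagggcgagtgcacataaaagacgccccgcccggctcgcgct
Nfkbia: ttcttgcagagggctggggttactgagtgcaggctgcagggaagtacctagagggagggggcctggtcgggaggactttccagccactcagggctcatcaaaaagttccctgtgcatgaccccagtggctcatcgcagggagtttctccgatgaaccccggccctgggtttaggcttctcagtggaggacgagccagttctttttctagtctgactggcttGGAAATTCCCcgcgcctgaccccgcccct
The *Id2* window held 3 matches to CCAAT, a motif found in 33.8% of all 32851 windows of this length, and none to the NF-kB consensus, which was found in 3.90% of them. It held 1 match to the E-box CANNTG, as 66.2% of windows did at least once. The *Nfkbia* window held 1 NF-kB match and none to CCAAT or the E-box.

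The members were set beside the *Id2*-low cells with L(*Il1rl1*) under 1, here called *Il1rl1*-low, which the same limit on *Id2* also removes. In WT of experiment 2, 575 of the 945 *Id2*-low cells were members (60.8%), and in WT of experiment 1 16 of 56 were (28.6%). In G3SEKO of experiment 2, 4 of 288 were (1.39%). The levels of the *Id2*-low *Il1rl1*-low cells differed from those of members as follows, by description only, since *Il1rl1* divided them (324 cells of experiment 2 and 38 of experiment 1 with the same *Mki67* limit). *Tcf7* had 818 CPM in these cells of WT in experiment 2 against 45.4 CPM in members, and 1175 against 16.4 CPM in experiment 1. *Cd3d*, a T cell receptor component, had 151 against 8.73 CPM and 180 against 0.874 CPM, and *Nkg7*, a gene of cytotoxic cells, 168 against 8.48 CPM and 390 against 1.09 CPM. *Gata3* had 659 against 1072 CPM and 382 against 1078 CPM, and *Ly6a*, encoding Sca-1, 798 against 1385 CPM and 108 against 1419 CPM. *Id3* had 27.3 CPM in them in experiment 2 and 35.8 CPM in the other experiment, while it was at most 0.219 CPM in members. Not all ILC2 genes were lower in the *Il1rl1*-low cells. *Bcl11b*, a transcription factor of T cells and ILC2s, had 515 against 295 CPM in experiment 2 and 709 against 149 CPM in experiment 1, and *Rora* 405 against 378 CPM and 97.5 against 458 CPM. *Mpo*, a gene of granulocyte precursors, had 976 CPM in the *Il1rl1*-low cells of experiment 1 and 2.09 CPM in those of experiment 2.

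A limit on *Id2* bears on the share of *Il1rl1*+ cells in each genotype. The *Il1rl1*+ cells counted here are those under the *Mki67* limit, while the totals are all passing cells. Without the *Id2* limit, *Il1rl1*+ cells were 4090 of 6075 WT cells (67.3%) and 53 of 1447 G3SEKO cells (3.66%) in experiment 2, a ratio of G3SEKO to WT of 0.0544. With it they were 3515 of 5130 (68.5%) and 49 of 1159 (4.23%), a ratio of 0.0617. In experiment 1 the shares were 434 of 737 (58.9%) and 2 of 63 (3.17%) without the limit, and 418 of 681 (61.4%) and 2 of 43 (4.65%) with it, and the ratio was 0.0539 and 0.0758. The ratio of experiment 1 rests on 2 G3SEKO cells. The share was higher with the limit than without it in both genotypes of both experiments, and the ratio stayed far under 1.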

How the data were processed

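Single-cell RNA-seq counts of sorted αLPs were used from 2 experiments, each with a messenger RNA and a hashtag table. The authors trimmed reads with Cutadapt, aligned them with Bowtie2 to GRCm38 and deposited the read counts of each gene in each cell, unnormalized, with cell names that hold the hashtag call. In these counts, copies of 1 molecule were not collapsed, so precision is lower than read numbers imply.

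Cells with 1 hashtag, at least 83012 (experiment 1) or 6733 reads (experiment 2) and at most 10% mitochondrial reads were kept, 800 of 1033 and 7522 of 7630. Passing cells hold 86505 to 3099662 reads in experiment 1 (WT) and 6753 to 738441 in experiment 2 (WT). Cells called doublets by hashtag were left out, and no doublet caller was run. The members and gene lists were chosen with earlier results of these data known.

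Members were matched 1 to 1 with *Id2*-high *Il1rl1*+ cells of the same hashtag (nearest log reads, within 1.25-fold), and genes within 1.25-fold of the mean of *Id2* were called of like mean. Reads were summed per class, genotype and experiment where a class had at least 5 cells, and tested with edgeR 4.0.16 (R 4.3.3; quasi-likelihood, TMM, filter on low counts, Benjamini-Hochberg over all genes), with experiment as a block because both classes come from the same library. The p-values measure the spread between these sums, not between mice. Log2 ratios of single sums were taken after adding 2 reads, scaled to the sums. Shares have 95% exact binomial intervals. Genes were named from the lists; genes called would have been named too, up to 10 in each direction. *Nfkbia*, *Nfkb1*, *Birc3*, *Tnfaip3*, *Arntl*, *Mark3*, *Icam1*, *Il18rap*, *Mx2*, *Gm13421*, *Rflnb*, *H2-Q7* and *Shisa5* were named after their values were seen. On simulated counts of this design, with the spread taken from the same sums, the test found few of the smaller changes put in, so its power is low. Even these smaller changes were larger than 2-fold. Alternatives were DESeq2 1.42.0, no filter, no block, other limits, thinning to 6733 reads and sums per hashtag.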

Additional observations from a re-analysis of the deposited data

Results flagged for a closer look

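Data outside the comparisons held 3 signals. In experiment 2, 3 cells called doublets by hashtag met the other limits on *Id2*, *Il1rl1*, *Mki67*, reads and mitochondrial reads, and they are not among the 595 members. Hashtag A0306, which the labels do not list, had 277 reads in the 16 members of experiment 1, which is 0.0422% of their hashtag reads. Hashtag A0301, also not listed, had 5000 reads in the 579 members of experiment 2, which is 0.289% of their hashtag reads. Their part in the results was not tested.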

How the results depend on the processing

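The share of *Id2*-low cells among *Il1rl1*+ WT cells moved with the limit and the depth. In experiment 1 it was 0.230% for no *Id2* read, 6.65% with every cell thinned to the read minimum of experiment 2, 1.21% for hashtag A0307 alone and 5.93% for A0309 alone. In experiment 2 it was 5.99% for no *Id2* read, 8.88% for L(*Id2*) under 0.5 and 17.3% thinned. A higher *Il1rl1* limit, at most 5% mitochondrial reads and a 2-fold hashtag rule left both shares within their intervals. Of genes besides those the rule used, edgeR called 0 in every fit, without the replicate block too (0 called), with 10 to 465 genes at an unadjusted p under 0.05, and DESeq2 called 3 (*Gm13421*, *Mx2* and *Rflnb*). With the *Id2* limit at 2, a setting chosen after seeing the data, DESeq2 called 34, of which 1 (*Vipr2*) was a list gene, and the cause was not tested. Fits per hashtag that left out 1 hashtag each, also added after seeing the data, gave log2 changes from -0.98 to 0.17 for *Gata3*, -0.46 to 1.29 for *Il2ra*, -0.15 to 0.33 for *Il7r*, -3.31 to 1.71 for *Nfkbia* and -4.55 to 0.20 for *Icam1*, the ligand gene of LFA-1, so their signs depended on single hashtags. These ranges join fits of WT hashtags with fits that also hold the G3SEKO hashtag A0303 (4 cells a class). The fits of WT hashtags alone ran from 0.02 to 0.17 for *Gata3*, -0.46 to 0.08 for *Il2ra*, -0.11 to 0.33 for *Il7r* and -2.11 to 1.71 for *Nfkbia*, and every fit of the others with A0303 gave a negative value for *Gata3*. *Gata3* was also reversed with thinning (0.36) and *Il7r* with sums per hashtag (0.067). *Junb* kept its sign in all 17 alternatives, but its log2 change of 0.92 was 0.03 (0.04 with DESeq2) at the *Id2* limit of 2, where hashtag A0309 went the other way (368 and 704 CPM). Without experiment 2, WT hashtags A0308 and A0309 alone gave 0 calls among 7148 genes, with 184 at an unadjusted p under 0.05, and a log2 change of 0.49 for *Nfkbia*. Leaving out experiment 1, or keeping only members without an *Id2* read (1 cell in experiment 1), left no residual degrees of freedom among WT sums and was not tested, and A0302 was not fitted with A0303 alone, and WT sums alone are the sums used. A cell at the read minimum of experiment 2 meets the limit at 1.16 *Id2* reads, so a call there rests on few reads.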
